A study of Mus musculus with 12 samples.

Results

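Flavin-containing monooxygenases are enzymes of the endoplasmic reticulum that hold FAD, are reduced by NADPH, and add an oxygen atom from air to nitrogen or sulfur centres of drugs, dietary amines and a few endogenous substrates. They work beside the cytochrome P450 enzymes, and their best studied sites are liver, kidney and lung. The genes described here are Fmo1, Fmo2, Fmo4 and Fmo5 of the mouse, 4 of the 55416 genes in the deposited tables and 4 of the 17130 genes that were tested. They were chosen by symbol with their levels in these libraries known, and the choice rested on Fmo2 being higher with both drugs than with vehicle. The differences between drug and vehicle after imiquimod are therefore given as a description, without a test.

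RNA of ear skin from C57BL/6 mice, 8 to 12 weeks old, was sequenced as mRNA libraries in 4 groups of 3, all titled day 6. IMQ_GW3965 mice received imiquimod and 20 mg/kg of GW3965, which activates the liver X receptors (LXR). IMQ_Troglitazone mice received imiquimod and 150 mg/kg of troglitazone, which activates the receptor PPARγ. IMQ_Veh mice received imiquimod and the vehicle, DMSO, and UTX_Veh carries no imiquimod in its label. Imiquimod, an activator of Toll-like receptor 7 used to raise psoriasis-like inflammation, was applied to the ears once a day as 20.8 mg of Aldara cream. The drugs were injected into the peritoneum from day 3. The labels do not spell out UTX and do not say which cream, if any, those ears received. Whether the 3 libraries of a group came from separate animals is not stated either, so p-values measure only how much these libraries vary among themselves.

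Library totals ran between 18242074 and 25641602 expected counts, the read numbers that the program RSEM estimates per gene. A single annotated feature held 11.6% of the counts of IMQ_GW3965 replicate 3, against at most 0.138% in any other library. Levels are given below as CPM, counts scaled to library size with edgeR's trimmed mean of M-values (TMM), and comparisons between genes as TPM, which is also scaled for transcript length. Tests are edgeR's quasi-likelihood test in 1 fit of the 4 groups, with Benjamini-Hochberg adjustment over all 17130 genes and a threshold of 0.05. In skin as a whole, fewer cells of a type and less RNA per cell cannot be told apart.

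Fmo1, Fmo2 and Fmo4 stand side by side on the minus strand of chromosome 1 and Fmo5 stands alone on the plus strand of chromosome 3 (GENCODE M21, GRCm38). Fmo4 (ENSMUSG00000026692) spans chr1:162793188-162813972, Fmo1 (ENSMUSG00000040181) spans chr1:162829561-162866610, and Fmo2 (ENSMUSG00000040170) spans chr1:162874317-162898726. Fmo5 (ENSMUSG00000028088) spans chr3:97628804-97655282. No annotated gene overlaps any of the 4. The sequence before the first RefSeq start of Fmo2 is shown because Fmo2 is the gene with the widest range between groups. Its CpG dinucleotides are in capitals, and it lies on the minus strand of GRCm38.p6 at chr1:162898759-162899008.
Fmo2 upstream: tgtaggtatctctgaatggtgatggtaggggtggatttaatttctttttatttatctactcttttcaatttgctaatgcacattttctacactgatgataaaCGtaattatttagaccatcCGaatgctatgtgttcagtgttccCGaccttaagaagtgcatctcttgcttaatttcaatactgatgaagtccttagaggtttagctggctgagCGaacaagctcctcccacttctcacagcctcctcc
A second RefSeq start of Fmo2 lies further in, and the 30 bases shown next, chr1:162898485-162898514, surround a match to the nuclear receptor motif AGGTCA, given in capitals.
Fmo2 receptor motif: cgtttacaatgaAGGTCAtatgaccagaca

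That match is at chr1:162898497-162898502, inside exon 1 of the transcript ENSMUST00000111510 and inside an intron of the longest Fmo2 transcript. LXR and PPARγ are both known to bind, each joined to RXR, a direct repeat of this motif, spaced by 4 bases in the case of LXR and by 1 base in the case of PPARγ. RefSeq promoter windows of 300 bases were at hand for 3 of the 4 genes, with a second window for Fmo2, and were searched on both strands. The single motif occurred in 16.3% of all 32851 windows, in the second Fmo2 window and in the Fmo4 window, where it lay on the opposite strand. Neither direct repeat of AGGTCA occurred in any of the 4 windows. Over all windows the repeat spaced by 4 bases occurred in 0.0152% and the repeat spaced by 1 base in 0.0396%. The repeats contain the single motif, so these searches overlap. The Fmo5 window held a TATA box, TATAAA, on the opposite strand (13.6% of all windows) and a GC box, GGGCGG (35.7%). The AP-1 site TGACTCA (5.2% of all windows) and the antioxidant response element core TGACNNNGC (12.4%) were in none of the 4. The Fmo5 window had 56.0% G and C and 10 CpG, against 41.3% and 5 CpG in the first Fmo2 window and 42.7% and 4 CpG in the Fmo4 window. The median window had 52.7% G and C and 7 CpG.

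Fmo2, known in mammals as the main form of lung, had the widest range between groups of the 4 genes. It had 71.7, 52.2 and 40.2 CPM in the IMQ_GW3965 libraries and 46.3, 38.3 and 109 CPM in the IMQ_Troglitazone libraries. By contrast, the IMQ_Veh libraries had 5.71, 11.8 and 9.71 CPM, and the UTX_Veh libraries had 55.5, 72.1 and 51.0 CPM. All 6 drug libraries lay above all 3 IMQ_Veh libraries and overlapped with the UTX_Veh libraries. Means were 54.7 ± 15.9 CPM in IMQ_GW3965, 64.5 ± 38.6 CPM in IMQ_Troglitazone, 9.07 ± 3.09 CPM in IMQ_Veh and 59.5 ± 11.1 CPM in UTX_Veh (SD, n = 3 each). The spread in IMQ_Troglitazone came from replicate 3, whose 109 CPM was far above the other two.

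Fmo1, which in mouse turns hypotaurine into taurine and is the main form of mouse kidney, had 22.1, 15.6 and 16.2 CPM in IMQ_GW3965 and 18.4, 16.2 and 34.6 CPM in IMQ_Troglitazone. It had 7.42, 3.22 and 12.8 CPM in IMQ_Veh, against 22.9, 15.5 and 28.4 CPM in UTX_Veh. The IMQ_Veh libraries were again below every other library, and the remaining groups overlapped. Means were 17.9 ± 3.61 CPM in IMQ_GW3965, 23.1 ± 10.005 CPM in IMQ_Troglitazone, 7.80 ± 4.78 CPM in IMQ_Veh and 22.3 ± 6.47 CPM in UTX_Veh (SD, n = 3 each). IMQ_Troglitazone replicate 3 was the highest library for Fmo1 too.

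Fmo5, an atypical member that inserts oxygen beside ketone groups rather than at nitrogen or sulfur, had 16.1, 12.6 and 13.2 CPM in IMQ_GW3965 and 13.5, 10.04 and 18.8 CPM in IMQ_Troglitazone. It had 9.39, 8.16 and 12.0 CPM in IMQ_Veh, against 25.9, 26.7 and 30.5 CPM in UTX_Veh. Here all 9 libraries from imiquimod-treated ears lay below all 3 UTX_Veh libraries. The IMQ_GW3965 libraries were above the IMQ_Veh libraries, and the IMQ_Troglitazone libraries overlapped with them. Means were 14.0 ± 1.91 CPM in IMQ_GW3965, 14.1 ± 4.41 CPM in IMQ_Troglitazone, 9.86 ± 1.97 CPM in IMQ_Veh and 27.7 ± 2.45 CPM in UTX_Veh (SD, n = 3 each).

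Fmo4, a form of low abundance whose substrates are little known, was close to the limit of detection. Its rounded counts were 8, 4 and 3 in IMQ_GW3965, 6, 6 and 12 in IMQ_Troglitazone, 3, 2 and 3 in IMQ_Veh and 17, 10 and 15 in UTX_Veh, 89 in all. These counts gave 0.257 ± 0.0903 CPM in IMQ_GW3965, 0.346 ± 0.128 CPM in IMQ_Troglitazone, 0.131 ± 0.0439 CPM in IMQ_Veh and 0.576 ± 0.137 CPM in UTX_Veh (SD, n = 3 each). The IMQ_Veh libraries were below every other library. Fmo4 reached the level of the filter on low counts, 0.478 CPM, in 3 UTX_Veh libraries and 1 IMQ_Troglitazone library and in none of the others. It passed the filter through the UTX_Veh libraries, the group it is then set against, so its calls relative to UTX_Veh are not counted as support. Fmo1, Fmo2 and Fmo5 were over that level in all 12 libraries.

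After imiquimod with vehicle, Fmo1, Fmo2 and Fmo5 fell relative to UTX_Veh. Fmo2 fell by 2.71 ± 0.40 (SE) on the log2 scale, with an edgeR adjusted p of 0.000148. Fmo1 fell by 1.53 ± 0.43 (edgeR adjusted p = 0.00878) and Fmo5 fell by 1.49 ± 0.21 (edgeR adjusted p = 0.000116). The log2 difference of Fmo4 was −2.13 ± 0.45 (edgeR adjusted p = 0.00158) and is not counted, for the reason given above. The 3 IMQ_Veh libraries lay below the 3 UTX_Veh libraries for Fmo1, Fmo2 and Fmo5. How many of all genes separate in this way was not counted, so this is a description only. In this contrast 61.9% of all tested genes were called, and 28.9% of all tested genes were called as lower, so a call here is common. The IMQ_Veh libraries are the same ones that entered the choice of the genes. The calls of Fmo1, Fmo2 and Fmo5 held in each of the alternatives run, with adjusted p between 0.000518 and 0.0352 for Fmo1, the weakest of them. The names of the deposited data hold a field, L001 or L009, that was read here as a lane. With it as a covariate the fall of Fmo2 was 2.57 ± 0.37 and that of Fmo1 was 1.63 ± 0.46 on the log2 scale.

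Relative to IMQ_Veh, Fmo2 was 6.01-fold as high in IMQ_GW3965 (log2 fold 2.59 ± 0.40 SE) and 7.08-fold as high in IMQ_Troglitazone (2.82 ± 0.40). Without IMQ_Troglitazone replicate 3 the log2 fold of Fmo2 with troglitazone was 2.22 ± 0.29. For Fmo1 the log2 folds were 1.22 ± 0.43 in IMQ_GW3965 and 1.58 ± 0.43 in IMQ_Troglitazone. With 1 library left out, the fold of Fmo1 in IMQ_GW3965 ran between 0.84 without IMQ_Veh replicate 2 and 1.78 without IMQ_Veh replicate 3. In IMQ_Troglitazone it ran between 1.17 without IMQ_Troglitazone replicate 3 and 2.14 without IMQ_Veh replicate 3. Fmo4 had log2 folds of 1.02 ± 0.51 in IMQ_GW3965 and 1.41 ± 0.48 in IMQ_Troglitazone. Fmo5 had the smallest, 0.51 ± 0.22 in IMQ_GW3965 and 0.52 ± 0.21 in IMQ_Troglitazone. Its value with troglitazone was 0.27 ± 0.19 when IMQ_Troglitazone replicate 3 was left out. The comparisons share the IMQ_Veh libraries. Over all tested genes, 6.59% were called in IMQ_GW3965, 3.71% as higher, and 9.34% in IMQ_Troglitazone, 4.69% as higher.

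The drug groups were then set against UTX_Veh, the ears without imiquimod in their label. Fmo5 remained lower, by 0.98 ± 0.21 on the log2 scale in IMQ_GW3965 (edgeR adjusted p = 0.00243) and by 0.97 ± 0.21 in IMQ_Troglitazone (edgeR adjusted p = 0.00336). Of Fmo1, Fmo2 and Fmo5, 1 passed the test in IMQ_GW3965, where 50.2% of all tested genes did and 21.5% were lower. The same gene passed in IMQ_Troglitazone, where 45.3% of all tested genes did and 18.8% were lower. For Fmo2 the log2 difference was −0.12 (95% interval −0.97 to 0.73) in IMQ_GW3965 and 0.12 (−0.73 to 0.96) in IMQ_Troglitazone. For Fmo1 it was −0.31 (−1.26 to 0.64) in IMQ_GW3965 and 0.05 (−0.89 to 0.99) in IMQ_Troglitazone. These intervals are wide, so they do not show that the levels were alike.

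The log2 difference of Fmo4 between IMQ_GW3965 and UTX_Veh was −1.11 ± 0.41 (edgeR adjusted p = 0.0385), not counted as support. The call was lost when any of 4 libraries was left out, with edgeR adjusted p of 0.111 without IMQ_GW3965 replicate 2, 0.106 without IMQ_GW3965 replicate 3, 0.119 without UTX_Veh replicate 1 and 0.107 without UTX_Veh replicate 3. It was also lost with DESeq2 (adjusted p = 0.116) and without the filter on low counts (edgeR adjusted p = 0.123). In IMQ_Troglitazone the log2 difference of Fmo4 was −0.72 (95% interval −1.58 to 0.15, edgeR adjusted p = 0.136).

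**Figure D1:**
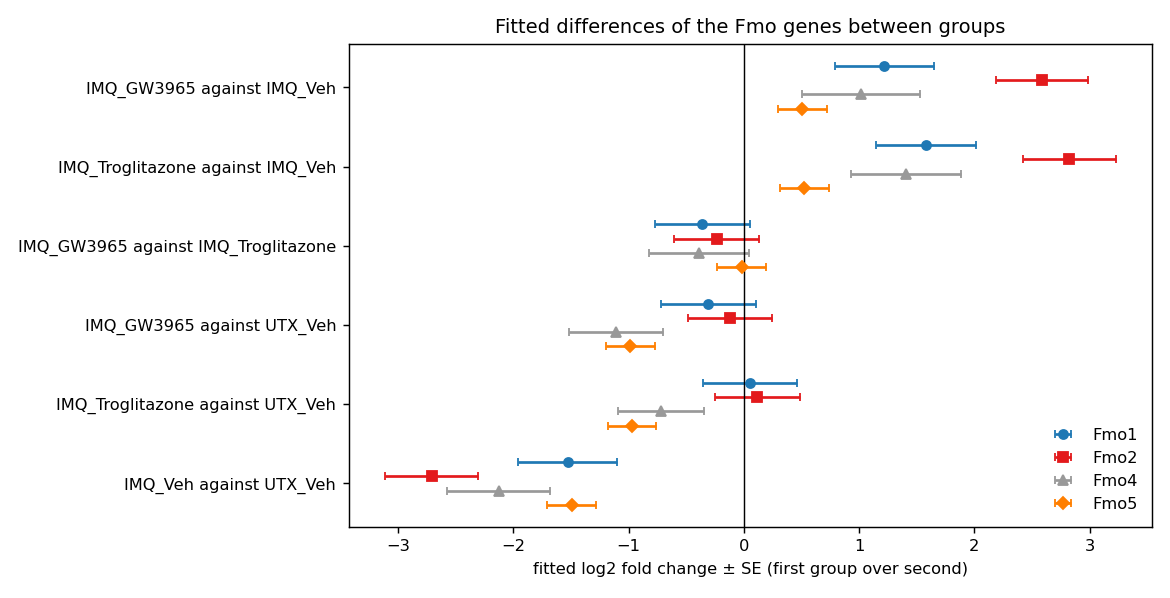
Fitted log2 fold changes of the 4 Fmo genes (x axis, first group over second, bars 1 SE from the edgeR fit of 12 libraries) for 6 comparisons (y axis). Fmo2 stands at 2.59 and 2.82 in the comparisons of the drugs with IMQ_Veh and near 0 in those with UTX_Veh, where Fmo5 stands at −0.98 and −0.97.

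GW3965 and troglitazone act on different receptors and were given at different doses, 20 and 150 mg/kg, so their values are set side by side. Between IMQ_GW3965 and IMQ_Troglitazone, 0 of the 4 genes passed edgeR's test, 0 had an unadjusted p under 0.05 and 0 passed with DESeq2. Over all tested genes 1.86% were called. The log2 difference of Fmo2 was −0.24 (95% interval −1.08 to 0.61) and that of Fmo1 was −0.36 (−1.31 to 0.59). For Fmo5 it was −0.02 (−0.51 to 0.47), the narrowest interval of the 4, and for Fmo4 it was −0.39 (−1.39 to 0.61). A level 1 log2 unit lower in IMQ_GW3965 thus lies outside the interval for Fmo5 and inside it for Fmo2, Fmo1 and Fmo4, and a level 1 log2 unit higher lies outside all 4.

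Per transcript length, the deposited TPM put Fmo2 at 20.2 ± 8.51 TPM in IMQ_GW3965, 29.7 ± 18.8 TPM in IMQ_Troglitazone, 3.33 ± 1.38 TPM in IMQ_Veh and 32.6 ± 4.51 TPM in UTX_Veh (SD, n = 3 each). Fmo1 had 16.6 ± 5.30 TPM in IMQ_GW3965, 26.9 ± 11.6 TPM in IMQ_Troglitazone, 6.90 ± 5.00 TPM in IMQ_Veh and 27.3 ± 6.20 TPM in UTX_Veh. Fmo5 had 5.69 ± 1.34 TPM in IMQ_GW3965, 7.42 ± 2.35 TPM in IMQ_Troglitazone, 4.30 ± 0.864 TPM in IMQ_Veh and 17.4 ± 2.27 TPM in UTX_Veh. By group mean Fmo2 was the highest of the 4 in IMQ_GW3965, IMQ_Troglitazone and UTX_Veh and Fmo1 in IMQ_Veh. In each group the ranges given by 1 SD of Fmo2 and Fmo1 overlapped. Within libraries, Fmo1 was the highest in IMQ_Troglitazone replicates 1 and 2 and in UTX_Veh replicate 3. The mean order in IMQ_Troglitazone thus came from replicate 3. In IMQ_Veh replicate 2, Fmo2 was the highest. Fmo4 was the lowest of the 4 in all 12 libraries. The summed TPM of the 4 genes was 58.7, 40.8 and 28.5 in IMQ_GW3965, 50.1, 41.1 and 102 in IMQ_Troglitazone, 10.1, 12.2 and 21.9 in IMQ_Veh and 76.4, 74.7 and 82.7 in UTX_Veh. The UTX_Veh sums varied least and the IMQ_Troglitazone sums most. TPM is a share of the library, and the IMQ_GW3965 library with 28.5 TPM is replicate 3, in which 1 feature held 11.6% of counts.

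**Figure D2:**
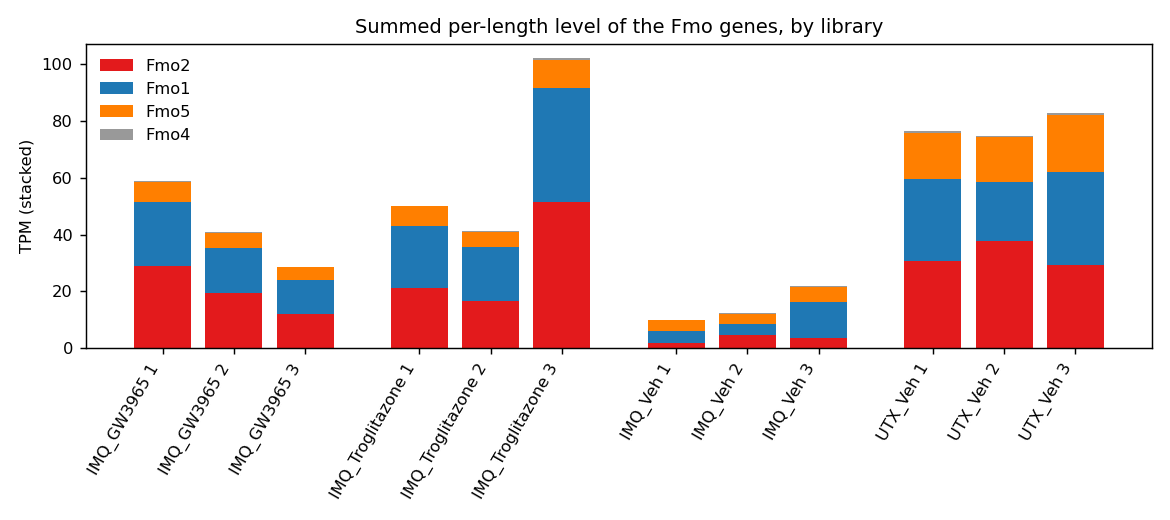
Stacked bars give the TPM of Fmo2, Fmo1, Fmo5 and Fmo4 (y axis) in each of the 12 libraries (x axis, replicate number after the group). The IMQ_Veh bars are the shortest, at 10.1 to 21.9 TPM, and Fmo4 is too low to be seen.

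The mixture of the genes also differed between groups. Fmo2 made up 49.5%, 47.9% and 42.3% of the summed TPM in IMQ_GW3965, 42.3%, 40.7% and 50.3% in IMQ_Troglitazone, 18.7%, 37.9% and 16.0% in IMQ_Veh, and 40.2%, 50.6% and 35.6% in UTX_Veh. The log2 ratio of Fmo2 to Fmo5 TPM was 2.02, 1.86 and 1.41 in IMQ_GW3965, 1.58, 1.67 and 2.37 in IMQ_Troglitazone, −1.08, 0.34 and −0.60 in IMQ_Veh, and 0.92, 1.24 and 0.56 in UTX_Veh. All 6 drug libraries lay above all 3 UTX_Veh libraries in this ratio, and the IMQ_Veh libraries lay below them. The log2 ratio of Fmo1 to Fmo5 TPM was 1.64, 1.55 and 1.38 in IMQ_GW3965, 1.61, 1.84 and 2.02 in IMQ_Troglitazone, 0.06, 0.09 and 1.26 in IMQ_Veh, and 0.83, 0.36 and 0.71 in UTX_Veh. Here too the drug libraries were above the UTX_Veh libraries, while IMQ_Veh replicate 3 stood apart from the other IMQ_Veh libraries in TPM. The estimated Fmo1 lengths in IMQ_Veh replicates 1, 2 and 3 were 2238, 1231 and 1454 bases, and they enter this ratio. Rounded counts of Fmo1 and Fmo5 there were 143 and 181, 80 and 203, and 243 and 229, so replicate 2 had the lowest count ratio. A TPM ratio within a library is free of scaling for library size but not of estimated transcript length. It shows only unequal change, and these ratios are a description with no test.

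RSEM's weighted mean transcript length gives a view of which transcripts were counted. For Fmo2 it ran between 3417 and 3569 bases in IMQ_GW3965, 3280 and 3600 bases in IMQ_Troglitazone, 3370 and 3659 bases in IMQ_Veh, and 3295 and 3473 bases in UTX_Veh. For Fmo1 it ran between 1405 and 1578 bases in IMQ_GW3965, 1401 and 1485 bases in IMQ_Troglitazone, 1231 and 2239 bases in IMQ_Veh, and 1495 and 1756 bases in UTX_Veh. The 4 groups overlapped for Fmo2; for Fmo1 the IMQ_Veh libraries, which had the fewest Fmo1 counts, varied most.

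How far each gene can be told from its relatives was checked on the annotated transcripts. None of the 5648 stretches of 50 bases in Fmo2 transcripts, and none of the 3698 in Fmo4 transcripts, occurred in another gene. For Fmo5 the share was 0.434% of 5764, and for Fmo1 it was 7.02% of 6314, spread over 26 other genes. Expected counts were whole numbers (within 0.005) in 12 of 12 libraries for Fmo2, Fmo4 and Fmo5 and in 1 of 12 for Fmo1. Fmo1 values therefore include reads that RSEM divided between genes.

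Fmo6 and Fmo9, further genes of the family, were barely seen. Fmo6 had summed expected counts of 1 in IMQ_GW3965, 5 in IMQ_Troglitazone, 0 in IMQ_Veh and 7 in UTX_Veh. Fmo9 had 0 counts in all 12 libraries, where a count of 0 allows up to 3 counts per group, for counting error only. Both were under the filter and were not tested.

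Across the 12 libraries the log2 CPM of Fmo4 and Fmo5 correlated with Pearson's r = 0.906, the highest of the 6 pairs, and Fmo2 and Fmo5 with r = 0.670, the lowest. The remaining pairs lay between 0.719 and 0.843. The libraries share their groups and their scaling, so these are descriptions over 12 points in 4 groups. Of 11520 named genes with at least 5 CPM on average, those most like Fmo2 were Adh1 (r = 0.971), a retinol and alcohol dehydrogenase, and Aldh3a2 (r = 0.971), a fatty aldehyde dehydrogenase, followed by Galnt15, Serpinb7, Pcsk6 and Vgll3 (r = 0.959 to 0.966). Adh1 averaged 34.5 CPM in IMQ_GW3965, 31.7 CPM in IMQ_Troglitazone, 10.8 CPM in IMQ_Veh and 43.0 CPM in UTX_Veh. Those most like Fmo1 were Serpina3c (r = 0.977), Cavin2 (r = 0.971), which codes for a protein of caveolae, Adgrl4, Fam124a, Scara5 and Cyp2e1 (r = 0.959 to 0.968). Cyp2e1, a P450 of small solvents and ethanol, averaged 12.9 CPM in IMQ_GW3965, 21.9 CPM in IMQ_Troglitazone, 3.82 CPM in IMQ_Veh and 18.2 CPM in UTX_Veh. Those most like Fmo5 were Glb1l2, Zrsr1, Gstt3, Snapin, Smim14 and Klhl33 (r = 0.982 to 0.987). Gstt3, a glutathione transferase, averaged 14.0 CPM in IMQ_GW3965, 13.6 CPM in IMQ_Troglitazone, 9.85 CPM in IMQ_Veh and 25.2 CPM in UTX_Veh. For Fmo4, whose own counts are few, they included Phka2, Acox3, Frmd4b, Arhgef10 and Slco2b1 (r = 0.953 to 0.958).

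Markers of other cell types were read beside the Fmo genes. The summed CPM of 15 fibroblast markers was 5930 to 6580 in IMQ_GW3965, 5820 to 6730 in IMQ_Troglitazone, 2900 to 11600 in IMQ_Veh and 8650 to 12800 in UTX_Veh. IMQ_Veh replicate 3 had the 11600 CPM and 9.71 CPM of Fmo2. The 6 drug libraries had sums of 5820 to 6730 CPM and 38.3 to 109 CPM of Fmo2. A part of fibroblast content in the Fmo2 level was not tested. Of the 15 fibroblast markers, 1 was higher and 5 were lower in IMQ_Veh than in UTX_Veh. In each drug group 1 was higher and 0 lower than in IMQ_Veh. Over all tested genes, 33% were higher and 28.9% lower in IMQ_Veh than in UTX_Veh. Relative to IMQ_Veh, 3.71% were higher and 2.88% lower in IMQ_GW3965, and 4.69% higher and 4.65% lower in IMQ_Troglitazone. Among the IMQ_Veh libraries, Fmo1 and Fmo5 were highest in replicate 3, at 12.8 and 12.0 CPM. The sum of 8 adipocyte markers was 539 to 724 CPM in IMQ_GW3965, 433 to 708 in IMQ_Troglitazone, 160 to 479 in IMQ_Veh and 459 to 812 in UTX_Veh. The sum of 8 sebaceous gland markers was 1790 to 2030 CPM in IMQ_GW3965, 1380 to 1770 in IMQ_Troglitazone, 709 to 1430 in IMQ_Veh and 971 to 1090 in UTX_Veh. Its members went both ways: 5 of 8 were lower and 1 higher in IMQ_Veh than in UTX_Veh (median log2 −1.16), and 6 of 8 were higher in IMQ_GW3965 than in IMQ_Veh (median 1.14) and 3 of 8 in IMQ_Troglitazone (median 0.76). The sum of 6 endothelial markers was 134 to 149 CPM in IMQ_GW3965, 142 to 150 in IMQ_Troglitazone, 52.0 to 205 in IMQ_Veh and 132 to 191 in UTX_Veh, so that the IMQ_Veh range held all the others.

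Of the inflammatory markers, those of neutrophils were by group highest in IMQ_Veh, where Fmo2 was lowest. The sum of 5 neutrophil markers was 266 to 2010 CPM in IMQ_GW3965, 378 to 1950 in IMQ_Troglitazone, 5720 to 10100 in IMQ_Veh and 7.77 to 23.1 in UTX_Veh. All 5 were higher in IMQ_Veh than in UTX_Veh, and 2 of 5 were lower in each drug group than in IMQ_Veh. The sum of 5 basal keratinocyte markers was 19500 to 23300 CPM in IMQ_GW3965, 15600 to 20700 in IMQ_Troglitazone, 22600 to 30600 in IMQ_Veh and 10900 to 12200 in UTX_Veh, although 2 of the 5 were lower in IMQ_Veh than in UTX_Veh and 3 higher. The sum of 6 suprabasal keratinocyte markers was higher in IMQ_Veh (27300 to 41600 CPM) than in UTX_Veh (15700 to 18200 CPM). It was 39000 to 53600 CPM in IMQ_GW3965 and 37100 to 45700 CPM in IMQ_Troglitazone. Gene by gene, however, 3 of the 6 were lower and 2 higher in IMQ_Veh than in UTX_Veh (median log2 −0.56). Relative to IMQ_Veh, 3 were higher and 0 lower in each drug group (medians 0.79 in IMQ_GW3965 and 0.65 in IMQ_Troglitazone). Of 6 T cell markers, 4 were lower and 1 higher in IMQ_Veh than in UTX_Veh. IMQ_Troglitazone replicate 3, the library with the most Fmo2, had the lowest neutrophil sum (378 CPM) and the lowest basal keratinocyte sum (15600 CPM) of its group. IMQ_GW3965 replicate 1, with the most Fmo2 of its group (71.7 CPM), had its lowest neutrophil sum (266 CPM). In IMQ_Veh the order differed: replicate 2 had the most Fmo2 (11.8 CPM) and the highest neutrophil sum (10100 CPM). Markers of skeletal muscle, which lies inside the ear, also differed, with sums of 3610 to 4940 CPM in IMQ_GW3965, 2210 to 3160 in IMQ_Troglitazone, 643 to 3240 in IMQ_Veh and 6150 to 7060 in UTX_Veh. No marker of these lists was at 0 in all libraries. Counts of called markers in every list stand against the shares of all tested genes given with the fibroblast markers. The part of these cell types in the Fmo differences was not tested.

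**Figure D3:**
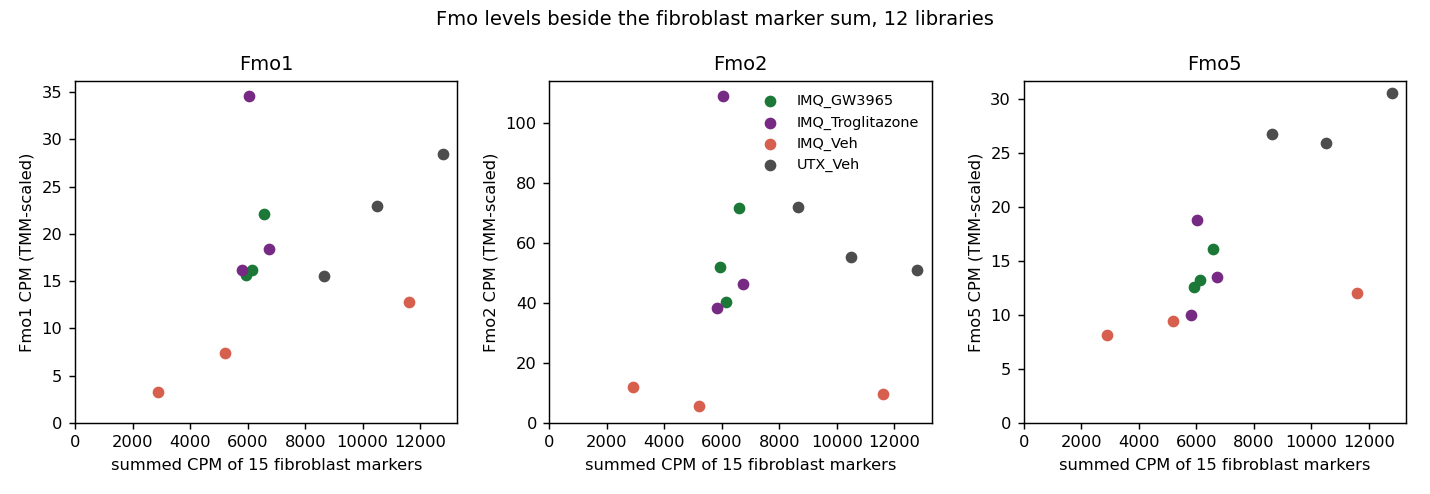
TMM-scaled CPM of Fmo1, Fmo2 and Fmo5 (y axes) against the summed CPM of 15 fibroblast markers (x axis) in 12 libraries, coloured by group. In the Fmo2 panel the IMQ_Veh library with a marker sum of 11600 CPM is at 9.71 CPM. The 6 drug libraries, with sums of 5820 to 6730 CPM, lie higher in that panel. The relation was not tested.

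Enzymes that supply the monooxygenases with cofactors were mixed in direction. Of 15 genes of NADPH supply, 6 rose and 4 fell in IMQ_Veh relative to UTX_Veh (list median log2 0.12, all genes 0.01). Over all tested genes, 33% were higher and 28.9% lower. Pgd, which makes NADPH in the pentose phosphate pathway, rose by 1.42 ± 0.12 on the log2 scale (edgeR adjusted p = 3.03e-06), and G6pdx, the first enzyme of that pathway, by 1.25 ± 0.11 (edgeR adjusted p = 4.87e-06). G6pdx averaged 202 ± 7.61 CPM in IMQ_GW3965, 197 ± 11.6 in IMQ_Troglitazone, 198 ± 30.5 in IMQ_Veh and 82.9 ± 7.41 in UTX_Veh (SD, n = 3 each). Of 5 genes of riboflavin uptake and flavin synthesis, Rfk, which makes FMN, fell by 0.40 ± 0.11 (edgeR adjusted p = 0.0091) and Flad1, which makes FAD, rose by 0.29 ± 0.08 (edgeR adjusted p = 0.01). The call of Flad1 was lost without IMQ_Veh replicate 1 or UTX_Veh replicate 3.

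Of 9 genes of taurine and hypotaurine metabolism, the pathway in which Fmo1 acts, 3 rose and 3 fell in IMQ_Veh relative to UTX_Veh, close to the shares of all genes (33% and 28.9%). With 1 library left out, 1 to 3 rose and 3 to 4 fell. The 3 that fell were Csad and Cdo1, which make hypotaurine from cysteine, and Slc6a6, the taurine transporter. Csad fell by 1.002 ± 0.12 on the log2 scale (edgeR adjusted p = 2.73e-05), Slc6a6 fell by 1.302 ± 0.22 (edgeR adjusted p = 0.000319) and Cdo1 fell by 1.55 ± 0.42 (edgeR adjusted p = 0.00734). Cdo1 averaged 44.6 ± 11.6 CPM in IMQ_GW3965, 35.8 ± 17.1 in IMQ_Troglitazone, 12.6 ± 7.45 in IMQ_Veh and 36.7 ± 10.3 in UTX_Veh (SD, n = 3 each). IMQ_Veh was its lowest group, as it was for Fmo1. Csad averaged 20.2 ± 2.16 CPM in IMQ_GW3965, 21.3 ± 3.23 in IMQ_Troglitazone, 18.6 ± 0.871 in IMQ_Veh and 37.2 ± 1.47 in UTX_Veh. It was lower than in UTX_Veh in IMQ_GW3965 (edgeR adjusted p = 0.00011) and in IMQ_Troglitazone (edgeR adjusted p = 0.00028).

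Other oxidases of foreign compounds were mixed in direction. Of 10 flavin or molybdenum oxidases 6 rose and 3 fell in IMQ_Veh relative to UTX_Veh, among them Aox4, an aldehyde oxidase of skin, which rose by 3.33 ± 0.22 (edgeR adjusted p = 8.3e-07). Of 20 genes of the microsomal P450 system 6 rose and 10 fell (list median −0.64), and of 22 conjugation enzymes tested 6 rose and 11 fell (list median −0.41). With 1 library left out, 3 to 6 of the P450 list rose and 8 to 10 fell. Cyp2d22 fell by 2.04 ± 0.34 (edgeR adjusted p = 0.000301) and Cyp4b1 by 1.28 ± 0.20 (edgeR adjusted p = 0.000203), whereas the glutathione transferase Gsta4 rose by 5.21 ± 0.30 (edgeR adjusted p = 4.28e-07). Of 13 regulators and targets of Nrf2 and the Ah receptor, which control many such enzymes, 8 rose and 1 fell, led by the cystine transporter Slc7a11 at 7.10 ± 0.52 (edgeR adjusted p = 1.58e-06). Fmo1, Fmo2 and Fmo5 fell, as did 10 of 20 genes of the P450 list and 11 of 22 of the conjugation list. In the Nrf2 and Ah receptor list 8 of 13 rose, and the 1 that fell was Ahr, the Ah receptor gene. Counts of calls in these lists stand against 33% of all tested genes higher and 28.9% lower.

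With the drugs, few genes of these lists passed the test relative to IMQ_Veh. In IMQ_GW3965 the P450 list had 4 higher and 1 lower and the conjugation list 6 higher and 1 lower. In IMQ_Troglitazone the P450 list had 4 higher and 0 lower and the conjugation list 2 higher and 1 lower. Over all genes 3.71% were higher and 2.88% lower in IMQ_GW3965, and 4.69% higher and 4.65% lower in IMQ_Troglitazone. These counts rest on single libraries: with 1 left out, 0 to 5 of the P450 list and 2 to 9 of the conjugation list were higher in IMQ_GW3965, and 0 to 7 and 0 to 6 in IMQ_Troglitazone. Left out in turn, IMQ_GW3965 replicates 1, 2 and 3 and IMQ_Veh replicates 1, 2 and 3 gave 105, 375, 412, 154, 733 and 3645 called genes in place of 1129 for IMQ_GW3965. IMQ_Troglitazone replicates 1, 2 and 3 and IMQ_Veh replicates 1, 2 and 3 gave 750, 1082, 252, 162, 1117 and 4460 in place of 1600 for IMQ_Troglitazone. The calls of the list genes Gstm1, Gstm2, Gsta4, Apoe and Srebf1 in IMQ_GW3965, and of Gsta4 and Cd36 in IMQ_Troglitazone, were kept whichever of the 6 libraries was left out. Gstm1, a glutathione transferase, averaged 129 ± 19.1 CPM in IMQ_GW3965, 109 ± 19.1 in IMQ_Troglitazone, 64.4 ± 7.18 in IMQ_Veh and 141 ± 11.5 in UTX_Veh (SD, n = 3 each), and rose in IMQ_GW3965 by 1.002 ± 0.14 on the log2 scale (edgeR adjusted p = 0.00632). Gsta4, whose level was highest in IMQ_Veh, fell by 1.67 ± 0.25 in IMQ_GW3965 (edgeR adjusted p = 0.00708) and by 1.79 ± 0.25 in IMQ_Troglitazone (edgeR adjusted p = 0.00676).

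Lists of known targets of the drugs' receptors, which also held the receptor genes themselves, were read beside the Fmo genes. Of 10 genes tested in the LXR list, 5 rose and 0 fell in IMQ_GW3965 relative to IMQ_Veh and 2 rose and 0 fell in IMQ_Troglitazone. With 1 library left out, 2 to 7 were higher in IMQ_GW3965 and 0 to 5 in IMQ_Troglitazone. Over all tested genes, 3.71% were higher and 2.88% lower in IMQ_GW3965, and 4.69% higher and 4.65% lower in IMQ_Troglitazone. The list genes Abca1 and Abcg1 were called in neither drug group relative to IMQ_Veh. In IMQ_Veh relative to UTX_Veh, 1 of the 10 was higher and 6 were lower. Apoe, a lipid carrier, rose by 0.996 ± 0.11 in IMQ_GW3965 (edgeR adjusted p = 0.00254), and Srebf1, the regulator of fatty acid synthesis, by 1.23 ± 0.15 (edgeR adjusted p = 0.00276). In IMQ_Troglitazone too, Apoe rose by 0.50 ± 0.11 (edgeR adjusted p = 0.0235) and Srebf1 by 0.57 ± 0.14 (edgeR adjusted p = 0.0347). Srebf1 averaged 308 CPM in IMQ_GW3965, 194 in IMQ_Troglitazone, 131 in IMQ_Veh and 252 in UTX_Veh. Apoe averaged 2000, 1420, 1000 and 1650 CPM in the same order. In IMQ_GW3965 neither was called relative to UTX_Veh (edgeR adjusted p = 0.113 for Srebf1 and 0.0591 for Apoe). Of 15 genes in the PPAR list 2 rose and 1 fell in each drug group, with 0 to 3 higher in IMQ_GW3965 and 1 to 6 in IMQ_Troglitazone when 1 library was left out. The gene that fell in each was the receptor gene Ppard, and 1 of the 2 that rose in IMQ_GW3965 was the receptor gene Pparg. In IMQ_Veh relative to UTX_Veh, 6 of the PPAR list were higher and 3 lower. The fatty acid transporter Cd36 rose by 1.34 ± 0.24 in IMQ_Troglitazone (edgeR adjusted p = 0.0126) and by 1.10 ± 0.24 in IMQ_GW3965 (edgeR adjusted p = 0.0244). It averaged 174 CPM in IMQ_GW3965, 205 in IMQ_Troglitazone, 81.0 in IMQ_Veh and 138 in UTX_Veh. Relative to UTX_Veh, Cd36 was not called in IMQ_GW3965 (edgeR adjusted p = 0.245) or IMQ_Troglitazone (edgeR adjusted p = 0.0639). The calls of Apoe and Srebf1 in IMQ_Troglitazone and of Cd36 in IMQ_GW3965 did not hold in every fit with 1 library left out. The log2 fold of Fmo2 relative to IMQ_Veh, 2.59 in IMQ_GW3965 and 2.82 in IMQ_Troglitazone, is larger than those of the named targets, in a gene chosen for that difference. Between the drugs, Srebf1 was higher in IMQ_GW3965 by 0.66 ± 0.14 (edgeR adjusted p = 0.0436) and Apoe by 0.50 ± 0.11 (edgeR adjusted p = 0.0492). Both calls were lost whichever of the 6 libraries was left out.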

How the data were processed

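Each library has its own RSEM gene table, as the authors deposited it. Tools named in the submitters' processing notes are STAR 2.7.3a, RSEM 1.3.3, Trim Galore and FastQC, on GRCm38 (mm10). The annotation release and strand setting were not given in the sources used here. Per the labels, a TruSeq stranded mRNA kit was used. The deposited expected counts, not scaled for depth, were rounded and tested with edgeR 4.0.16 (R 4.3.3; TMM, filterByExpr, quasi-likelihood test, 8 residual degrees of freedom). TPM, as the authors deposited it, was used between genes; the deposited FPKM were not used. SE is the log2 fold divided by the root of F. Of 55416 gene identifiers 52083 matched GENCODE M21. The test was checked on simulated data. The genes and lists were chosen with earlier results of these data known. Up to 4 list genes per comparison were eligible by smallest adjusted p, and 6 like-patterned genes per Fmo gene by correlation; some values are not reported here. Replicates differed by more than sampling noise (chi-square per degree of freedom at least 8.34). Alternatives were DESeq2 1.42.0, RLE and upper-quartile scaling, no filter, the 2 groups alone, lane, replicate number, 1 dominant feature removed, and each library left out.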

Additional observations from a re-analysis of the deposited data

How the results depend on the processing

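No Fmo value changed sign among those past the threshold. The calls of Fmo1, Fmo2 and Fmo5 in IMQ_Veh against UTX_Veh, and of Fmo5 in both drug groups against UTX_Veh, were kept in all alternatives. In IMQ_GW3965 against UTX_Veh, 2 Fmo genes passed with Fmo4 counted, and 1 passed with DESeq2, without a filter, with the 2 groups alone, or with IMQ_Veh replicate 3 and IMQ_GW3965 replicate 3 left out together, an alternative chosen after seeing the data; leaving out 1 library gave 1 to 2. Few Fmo4 reads limit this call. The log2 fold of Fmo2 in IMQ_Troglitazone against IMQ_Veh was 2.22 to 3.09 with 1 library out, lowest without IMQ_Troglitazone replicate 3. Over all genes, IMQ_GW3965 against IMQ_Troglitazone had 319 calls, and 960 with DESeq2, 140 without a filter, 9 with the 2 groups alone, 0 with both libraries out and 0 to 73 with 1 library out. IMQ_GW3965 against IMQ_Veh had 1129, and 2222 with DESeq2, 102 with the 2 groups alone, 549 with lane, 3041 with both libraries out and 105 to 3645 with 1 out. IMQ_Troglitazone against IMQ_Veh had 1600, and 2590 with DESeq2, 0 with the 2 groups alone, 1009 with lane, 4166 with both libraries out and 162 to 4460 with 1 out. The causes were not tested. Same-numbered libraries correlated at −0.22 to 0.31, with 4 of 18 pairs over 0.1. Differently numbered libraries correlated at −0.30 to 0.35, with 2 of 36 pairs over 0.1. For 6 of 12 libraries the highest correlation was with a library of their own number. The labels do not say whether the numbers pair the samples, and correlations this weak cannot settle it. With a replicate block IMQ_GW3965 against IMQ_Troglitazone had 131 calls; there were 1426 in IMQ_GW3965 and 1715 in IMQ_Troglitazone against IMQ_Veh, and 8716, 7911 and 10722 in IMQ_GW3965, IMQ_Troglitazone and IMQ_Veh against UTX_Veh, within 1.5 times of the unblocked counts. Upper-quartile scaling moved the median of all genes in IMQ_Veh against UTX_Veh to −0.11 and the split to 4804 higher and 5867 lower, against 5646 and 4951; in IMQ_GW3965 against UTX_Veh it gave 4149 and 4633, against 4924 and 3682, and in IMQ_Troglitazone against UTX_Veh 3532 and 4371, against 4546 and 3222.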

Other observations

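The genes around the Fmo clusters did not share one pattern. Prrx1, which codes for a mesenchymal transcription factor, lies beyond 1 end of the chromosome 1 cluster. Mroh9, which lies between them, was under the filter on low counts and was not tested. Prrx1 fell by 0.75 ± 0.23 on the log2 scale in IMQ_Veh relative to UTX_Veh (edgeR adjusted p = 0.0132). Its log2 difference from IMQ_Veh was 0.02 ± 0.23 in IMQ_GW3965 and 0.10 ± 0.23 in IMQ_Troglitazone, where those of Fmo2 were 2.59 and 2.82. Prrc2c, on the other side of that cluster, differed by 0.09 ± 0.13 between IMQ_Veh and UTX_Veh (edgeR adjusted p = 0.573). It was lower in IMQ_GW3965 than in IMQ_Troglitazone by 0.69 ± 0.13 (edgeR adjusted p = 0.0319), and relative to UTX_Veh its log2 difference was −0.35 in IMQ_GW3965 (edgeR adjusted p = 0.0362) and 0.33 in IMQ_Troglitazone (edgeR adjusted p = 0.0485). Myocos, next to Prrc2c, fell by 2.40 ± 0.59 in IMQ_Veh relative to UTX_Veh (edgeR adjusted p = 0.00408), at 0.119 CPM in IMQ_Veh and 0.685 CPM in UTX_Veh. Beside Fmo5, Prkab2, a subunit of AMP-activated kinase, fell by 0.48 ± 0.10 in IMQ_Veh relative to UTX_Veh (edgeR adjusted p = 0.00134), and Chd1l differed by −0.03 ± 0.13 (edgeR adjusted p = 0.868).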
